A study of Mus musculus with 8 samples.

Results

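Kupffer cells are the resident macrophages of the liver, and the genes described here are 10 whose RNA is used to recognise them: Adgre1, Clec4f, Vsig4, Timd4, Marco, Cd5l, Cd163, Folr2, Csf1r and Cd68. They were taken by symbol from a table of 47719 genes, in which each of the 10 had 1 row. The table covers 8 libraries of bulk RNA from livers of wild type C57BL/6 mice. Of these, 4 libraries were from day 2 following extended hepatectomy, an operation in which most of the liver is cut away, 2 were from day 14 following the same operation, and 2 were from normal control mice aged 10 weeks. The study tests encapsulated organoids of human proliferating hepatocytes against liver failure. Its design text names mice given EMC, as treated controls, or eLO at day 2, and eLO alone at day 14, without spelling out either abbreviation, so every hepatectomy library stands for surgery plus a treatment. No label says which day 2 library had which treatment, so the 4 were kept as 1 group, and the effects of surgery, time and treatment cannot be told apart. The title of day 2 replicate 1 reads day 1 although its age label reads day 2, and the age of the operated mice is not given in the labels.

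Kupffer cells line the sinusoids and clear particles, bacteria and old red cells from portal blood. They are seeded before birth, renew themselves locally and depend on CSF1 signalling through the receptor that Csf1r encodes. When they are lost, blood monocytes can enter the niche and take on the same markers step by step, of which Timd4 is known in mice to come late. Cd68, Csf1r and Adgre1 are shared with other macrophages, Clec4f is the most restricted to mouse Kupffer cells, and Marco is a receptor that macrophages can induce.

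All 10 genes were above 0 in every library and passed the filter of at least 1 FPKM in at least 2 libraries, with which 12340 genes were tested. FPKM counts sequenced fragments scaled by transcript length and by library size, so levels of different genes can be set side by side. The label of liver held, with albumin RNA (Alb) at 14930 to 39857 FPKM. In bulk RNA, fewer Kupffer cells and less of a transcript per cell cannot be told apart. Whether each library had its own mouse is not labelled, and the p-values therefore speak only for the spread among these libraries, which may be technical. The absolute depth is unknown, and depth relative to control replicate 1, from the lowest FPKM values, lay between 0.634 in day 14 replicate 1 and 1.14 in day 2 replicate 4. Across genes the day 2 libraries fell into pairs, with r = 0.959 between replicates 1 and 2, r = 0.968 between replicates 3 and 4, and 0.889 to 0.926 between the pairs. Short transcripts stood higher than long ones in the operated livers: the eighth of genes with the shortest transcripts exceeded the longest eighth by 0.80 to 0.93 log2 units at day 2 and 0.62 to 0.93 at day 14, against 0.03 and -0.03 in the controls.

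At day 2 the set did not move as one. Marco rose, Adgre1 and Csf1r fell, and the other 7 did not pass the test. At day 14 Adgre1, Vsig4 and Csf1r were lower than in control and none of the 10 was called higher. The log2 change against control was below 0 in 9 of 10, though the Cd68 libraries overlapped control. Over all tested genes the median log2 change there was -0.002. Clec4f, the most restricted marker, was not called in any of the 3 comparisons.

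Start site regions of Marco and Cd68, the members whose day 2 libraries all exceeded both controls, and of Vsig4, which fell by day 14, are given to show the DNA at which these RNAs begin. Each runs from 250 bases before to 50 after the RefSeq start, on GRCm38.p6 and in the direction of transcription. Marco lies at chr1:120504975-120505274 and Vsig4 at chrX:96293389-96293688, both on the minus strand, as is Cd68 at chr11:69666121-69666420. Capitals mark matches, on either strand, to the PU.1 core GAGGAAG, the MAF motif TGCTGAC, the AP-1 site TGANTCA and the E-box CACGTG.
Marco: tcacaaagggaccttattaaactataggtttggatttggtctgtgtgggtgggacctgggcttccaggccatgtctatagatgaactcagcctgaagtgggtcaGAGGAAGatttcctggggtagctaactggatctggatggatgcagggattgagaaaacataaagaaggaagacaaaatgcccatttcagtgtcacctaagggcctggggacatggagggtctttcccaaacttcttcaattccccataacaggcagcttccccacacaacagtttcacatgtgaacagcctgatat
Cd68: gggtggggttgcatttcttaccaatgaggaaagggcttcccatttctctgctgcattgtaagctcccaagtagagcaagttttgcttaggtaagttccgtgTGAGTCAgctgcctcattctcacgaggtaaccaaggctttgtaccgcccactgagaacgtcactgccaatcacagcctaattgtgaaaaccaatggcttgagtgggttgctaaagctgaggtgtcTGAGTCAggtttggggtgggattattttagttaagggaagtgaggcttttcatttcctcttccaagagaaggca
Vsig4: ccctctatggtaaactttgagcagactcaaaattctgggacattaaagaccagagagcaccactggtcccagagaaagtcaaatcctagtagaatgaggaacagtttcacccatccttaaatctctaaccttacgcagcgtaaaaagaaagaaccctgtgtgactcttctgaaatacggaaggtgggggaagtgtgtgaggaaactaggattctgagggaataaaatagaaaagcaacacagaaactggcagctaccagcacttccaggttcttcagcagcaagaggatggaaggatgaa

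The Marco window held 1 PU.1 core, starting 146 bases before the start site. The Cd68 window held 2 AP-1 matches, starting 149 and 24 bases before it, and the Vsig4 window held none of the 4 motifs. PU.1 is a lineage factor of macrophages and AP-1 is formed by Fos and Jun proteins. Among all 32851 promoter windows in the RefSeq table, 13.6% held the PU.1 core, 4.67% the MAF motif, 7.81% an AP-1 match and 7.15% the E-box. Of the 10 members 8 had a window in the table. Cd5l held a PU.1 core on the opposite strand, Timd4 a MAF motif and 1 of the 2 Folr2 windows an AP-1 match.

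Marco encodes a scavenger receptor that binds bacteria and particles. Its gene lies on chromosome 1 of GRCm38 at 120474538 to 120505024. In day 2 replicates 1 to 4 it stood at 35.5, 80.4, 33.4 and 51.0 FPKM, in day 14 replicates 1 and 2 at 4.36 and 6.08 FPKM, and in control replicates 1 and 2 at 2.38 and 1.82 FPKM. All 4 day 2 libraries lay above every other library, and both day 14 libraries lay above both controls. Means were 50.1 ± 21.7 FPKM at day 2 (SD, n = 4) and 2.10 ± 0.394 FPKM in control (SD, n = 2), a ratio of 23.8. The log2 change at day 2 against control was 3.96 ± 0.36 (SE) on the log2(FPKM + 1) scale (limma, adjusted p = 0.00162, after Benjamini and Hochberg). That scale makes the changes of genes with low FPKM look smaller. Marco ranked 22 from the top among the 12340 tested genes. Between day 14 and day 2 it fell by 2.96 on the log2 scale (SE 0.36; limma adjusted p = 0.00429), to a mean of 5.22 ± 1.21 FPKM at day 14. The difference of day 14 from control, 1.00 ± 0.41, did not pass (limma adjusted p = 0.152). It passed without day 2 replicate 2 (limma adjusted p = 0.0489) and with all day 2 libraries left out of the model (limma adjusted p = 0.0309). The rise at day 2 was called without each of the 8 libraries in turn, with log2 changes of 3.70 to 4.12. The fall to day 14 was lost without day 14 replicate 1 (-2.76, limma adjusted p = 0.0684).

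Cd68 encodes a lysosomal membrane protein of macrophages, and is commonly used to count them. Its gene is on chromosome 11 of GRCm38 at 69664213 to 69666153. It stood at 26.5, 22.4, 8.44 and 16.2 FPKM in day 2 replicates 1 to 4, at 7.20 and 4.49 FPKM in day 14 replicates 1 and 2, and at 7.62 and 6.72 FPKM in control replicates 1 and 2. Day 2 lay above both other groups without overlap, though replicate 3 came close to control, and day 14 overlapped control. The mean of 18.4 ± 7.88 FPKM at day 2 (SD, n = 4) was 2.57 times the 7.17 ± 0.636 FPKM in control (SD, n = 2). The log2 change of 1.14 ± 0.41 did not pass (limma adjusted p = 0.0831), nor did day 14 against day 2 at -1.42 ± 0.41 (limma adjusted p = 0.0519). Without day 2 replicate 3 both passed, at 1.45 (limma adjusted p = 0.0133) and -1.73 (limma adjusted p = 0.0112). Cd68 has one of the shorter transcripts, longer than 12.2% of those tested, and its change at day 2 was 0.77 once the dependence on transcript length and GC content was taken out (limma adjusted p = 0.235).

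**Figure D1:**
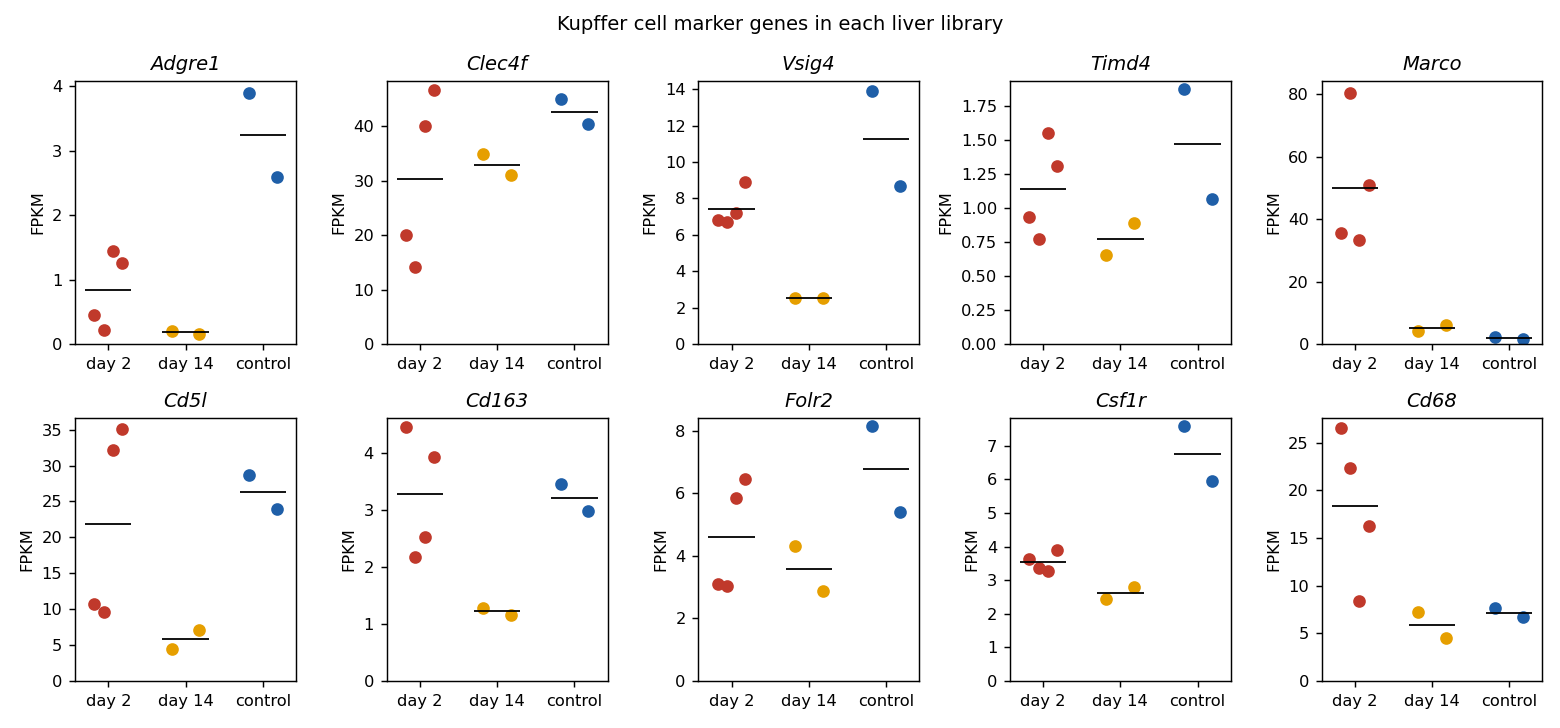
FPKM of each of the 10 Kupffer cell marker genes (vertical axis, linear from 0, a separate scale for each gene) in the 4 day 2, 2 day 14 and 2 control libraries. Points are libraries in replicate order and horizontal lines are group means. Marco is at 33.4 to 80.4 FPKM at day 2 and at most 6.08 FPKM elsewhere, whereas Vsig4, Cd5l, Cd163 and Adgre1 are lowest at day 14.

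Csf1r encodes the receptor for CSF1 and IL-34, on which macrophages depend, on chromosome 18 of GRCm38 at 61100598 to 61132149. Its levels were 3.64, 3.35, 3.28 and 3.90 FPKM in day 2 replicates 1 to 4, 2.44 and 2.81 FPKM in day 14 replicates 1 and 2, and 7.58 and 5.96 FPKM in control replicates 1 and 2. The 3 groups did not overlap, and the day 2 libraries differed by no more than 1.19 times. Csf1r fell at day 2 by 0.77 on the log2 scale (SE 0.19; limma adjusted p = 0.0257) and at day 14 by 1.09 (SE 0.22; limma adjusted p = 0.0305), both against control. The call at day 2 was lost without day 2 replicate 1 or either control library, and that at day 14 without any 1 of the day 14 or control libraries. Day 14 against day 2, at -0.33 ± 0.19, did not pass (limma adjusted p = 0.255). The gene shares 873 bases with Hmgxb3 on the opposite strand, which reached 3.24 FPKM at most, and the sources used here do not say that counting was by strand.

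Adgre1 encodes F4/80, the classic surface marker of mouse macrophages, on chromosome 17 of GRCm38 at 57358691 to 57483527. It stood at 0.454, 0.223, 1.45 and 1.26 FPKM in day 2 replicates 1 to 4, at 0.207 and 0.157 FPKM in day 14 replicates 1 and 2, and at 3.89 and 2.60 FPKM in control replicates 1 and 2. Every operated liver lay below both controls, and both day 14 livers lay below every day 2 liver. The control mean of 3.25 ± 0.915 FPKM (SD, n = 2) was 3.83 times that of day 2, 0.848 ± 0.600 FPKM (SD, n = 4), and 17.9 times that of day 14, 0.182 ± 0.0357 FPKM (SD, n = 2). Adgre1 fell by 1.24 at day 2 (SE 0.33; limma adjusted p = 0.0317) and by 1.83 at day 14 (SE 0.38; limma adjusted p = 0.0327) on the log2(FPKM + 1) scale. The fall at day 2 lost its call without day 2 replicate 1, or without either library of day 14 or of control, at -1.47 to -1.02. With a pseudocount of 0.1 FPKM the change was -2.07 at day 2, which then did not pass (limma adjusted p = 0.0653), and -3.55 at day 14, which did. The fall at day 14 lost its call without any 1 of the day 14 or control libraries. The difference between day 14 and day 2 did not pass (limma adjusted p = 0.242).

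Vsig4 encodes CRIg, a complement receptor with which Kupffer cells catch opsonised bacteria from the blood. The gene is on chromosome X of GRCm38 at 96247203 to 96293438. Day 2 replicates 1 to 4 had 6.80, 6.71, 7.20 and 8.89 FPKM, day 14 replicates 1 and 2 had 2.55 and 2.54 FPKM, and control replicates 1 and 2 had 13.9 and 8.68 FPKM. Day 14 lay below all other libraries, and day 2 overlapped the lower control. Against control the log2 change was -1.76 ± 0.27 at day 14 (limma adjusted p = 0.02) and -0.52 ± 0.23 at day 2, which did not pass (limma adjusted p = 0.136). Between day 14 and day 2 Vsig4 fell by 1.24 (SE 0.23; limma adjusted p = 0.0138). That call was lost without day 14 replicate 1 (limma adjusted p = 0.125) and without day 14 replicate 2 (limma adjusted p = 0.0525). The call against control was lost without day 14 replicate 1 or either control library.

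Cd5l and Cd163 were the other members with a day 14 level below every other library. Neither passed the test in the main fit, in which the 3 groups share 1 estimate of the spread. With day 2 left out of the model both were called lower at day 14 than in control (limma adjusted p = 0.0144 and 0.0241). Cd5l encodes a secreted protein of macrophages also called AIM, on chromosome 3 of GRCm38 at 87357881 to 87371073. It stood at 10.7, 9.53, 32.2 and 35.1 FPKM in day 2 replicates 1 to 4, at 4.47 and 7.08 FPKM in day 14 replicates 1 and 2, and at 28.7 and 23.9 FPKM in control replicates 1 and 2. Day 2 was split, with replicates 1 and 2 below both controls and replicates 3 and 4 above them. The log2 change at day 14 was -2.03 ± 0.63 against control (limma adjusted p = 0.0754) and -1.56 ± 0.54 against day 2 (limma adjusted p = 0.0835). Without day 2 replicate 2 both passed, at limma adjusted p of 0.0435 and 0.0393.

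Cd163 encodes the receptor that takes up haemoglobin bound to haptoglobin, on chromosome 6 of GRCm38 at 124304656 to 124330527. It had 4.44, 2.17, 2.52 and 3.93 FPKM in day 2 replicates 1 to 4, 1.28 and 1.15 FPKM in day 14 replicates 1 and 2, and 3.45 and 2.97 FPKM in control replicates 1 and 2. Day 2 spread around the controls, with a log2 change of -0.02 ± 0.26 (limma adjusted p = 0.973). Day 14 differed by -0.92 ± 0.30 from control (limma adjusted p = 0.0864) and by -0.91 ± 0.26 from day 2 (limma adjusted p = 0.0501). Without day 2 replicate 2 both passed, at limma adjusted p of 0.0474 and 0.0248.

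Clec4f encodes a galactose-binding lectin, on chromosome 6 of GRCm38 at 83644542 to 83656187, and was the most abundant member in both controls. It stood at 20.1, 14.1, 40.1 and 46.7 FPKM in day 2 replicates 1 to 4, at 34.8 and 31.1 FPKM in day 14 replicates 1 and 2, and at 44.9 and 40.3 FPKM in control replicates 1 and 2. At day 2, replicates 1 and 2 had less than every other library, while replicate 4 exceeded both controls. The log2 change was -0.63 ± 0.45 at day 2 (limma adjusted p = 0.334) and -0.36 ± 0.52 at day 14 (limma adjusted p = 0.693), and 0.27 ± 0.45 for day 14 against day 2 (limma adjusted p = 0.697).

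Folr2 encodes a folate receptor found on tissue macrophages, and Timd4 a receptor for phosphatidylserine on dying cells. Folr2 lies on chromosome 7 of GRCm38 at 101839988 to 101857194 and Timd4 on chromosome 11 at 46810800 to 46844332. Folr2 was at 3.10, 3.05, 5.86 and 6.45 FPKM in day 2 replicates 1 to 4, at 4.30 and 2.87 FPKM in day 14 replicates 1 and 2, and at 8.15 and 5.39 FPKM in control replicates 1 and 2. Timd4 was low throughout, at 0.933, 0.771, 1.55 and 1.31 FPKM in day 2 replicates 1 to 4, at 0.656 and 0.888 FPKM in day 14 replicates 1 and 2, and at 1.88 and 1.07 FPKM in control replicates 1 and 2. Both genes overlapped control at day 2 and lay below it at day 14. Neither passed in any comparison, the lowest limma adjusted p being 0.226 for Folr2 and 0.305 for Timd4, both at day 14 against control.

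Read as a set, 1 of the 10 was called higher and 2 lower at day 2 against control, where 9.72% of all tested genes were called higher and 11.5% lower (limma adjusted p under 0.05). With 10 genes, 1 and 2 calls lie near that share. The median log2 change of the members was -0.49, against 0.05 over all tested genes. At day 14 against control 3 of 10 were called lower and 0 higher, where 4.58% of all genes were called lower and 5.21% higher. The members' median was -0.84 and that of all genes -0.00, and 6 members had an unadjusted p under 0.05 by limma, 1 of them Marco in the upward direction. Between day 14 and day 2, 2 of 10 were lower and 0 higher, against 7.03% lower and 9.09% higher among all genes, with medians of -0.75 and -0.03. The comparisons share libraries, so these counts are not independent of each other. With the length and GC trend taken out, the counts were the same in all 3 comparisons. Without control replicate 1, control replicate 2 or day 14 replicate 1 no member was called at day 14 against control, where over all genes 1, 1 and 0 were called. Without day 2 replicate 2, 6 members were called at day 14 against control, 1 of them Marco in the upward direction. At day 2 against control only Marco was called without day 2 replicate 1, control replicate 1 or control replicate 2.

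**Figure D2:**
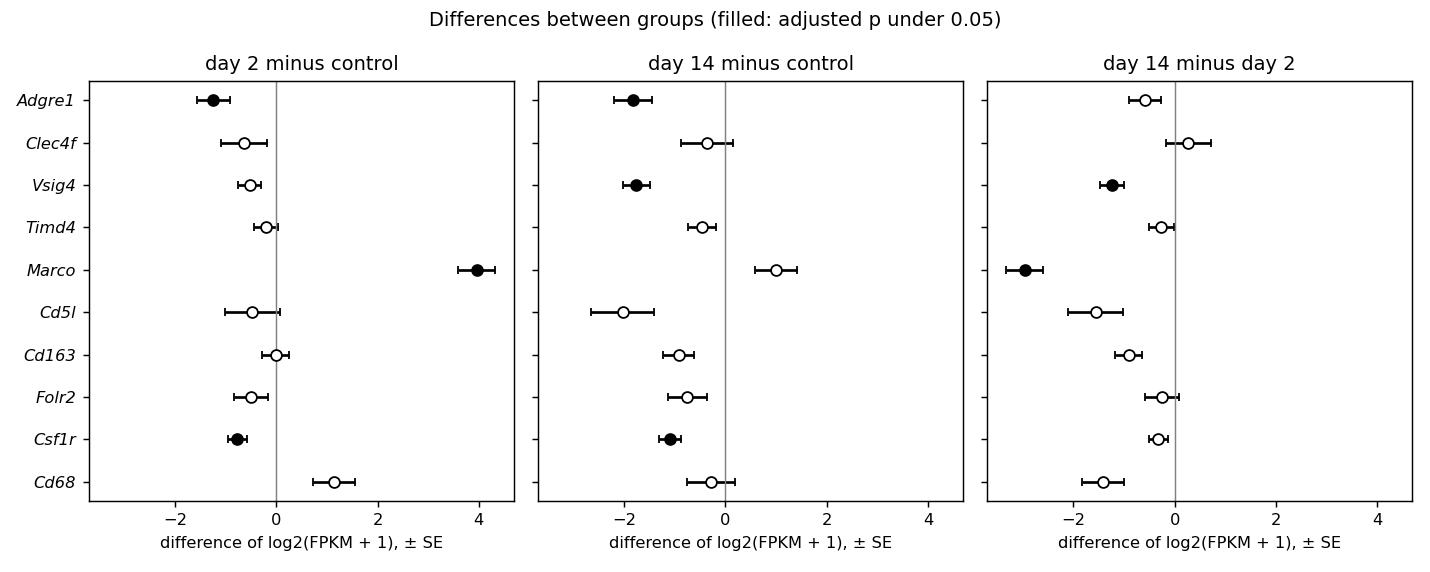
Difference between groups in log2(FPKM + 1) for each of the 10 genes (horizontal axis, points with SE), for day 2 minus control, day 14 minus control and day 14 minus day 2. Filled points passed limma's test at an adjusted p under 0.05. Marco stands at 3.96 at day 2 and -2.96 from day 2 to day 14, while Adgre1 and Csf1r are below 0 and filled in both comparisons with control.

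Since all members come from the same library, their ratio does not depend on any scaling between libraries. It can still carry the trend with transcript length in the operated livers, which was not removed from these ratios. The Csf1r transcript is longer than 77.2% of those tested and that of Cd68 longer than 12.2%. Marco relative to Clec4f stood at 1.77, 5.68, 0.834 and 1.09 in day 2 replicates 1 to 4, at 0.125 and 0.195 in the day 14 libraries, and at 0.0530 and 0.0452 in the controls. Adgre1 relative to Clec4f stood at 0.0226, 0.0158, 0.0362 and 0.0271 at day 2, at 0.00594 and 0.00503 at day 14, and at 0.0867 and 0.0645 in control. Neither ratio overlapped between any of the groups, so in these libraries the markers did not keep the same proportion. How often ratios of other gene pairs separate the groups was not tested. Adgre1 was low at day 14, at 0.207 and 0.157 FPKM, which makes its ratio there less certain. Cd5l relative to Clec4f was 0.531 to 0.803 at day 2, overlapping the 0.592 to 0.639 in control, and 0.128 to 0.228 at day 14. Vsig4 relative to Clec4f was also lowest at day 14, at 0.0731 and 0.0818, against 0.309 and 0.215 in control. Cd68 relative to Clec4f was 1.32 and 1.58 in day 2 replicates 1 and 2 and 0.211 and 0.348 in replicates 3 and 4, against 0.170 and 0.166 in control. Csf1r relative to Cd68 was 0.137 to 0.389 at day 2 and 0.339 and 0.625 at day 14, against 0.995 and 0.887 in control. Marco made up 24.6% to 56.3% of the members' summed FPKM at day 2 and 7.01% and 10.3% at day 14, against 1.95% and 1.83% in control. The sum without Marco was 62.3 to 124 FPKM at day 2 and 57.9 and 53.1 FPKM at day 14, against 120 and 97.6 FPKM in control.

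**Figure D3:**
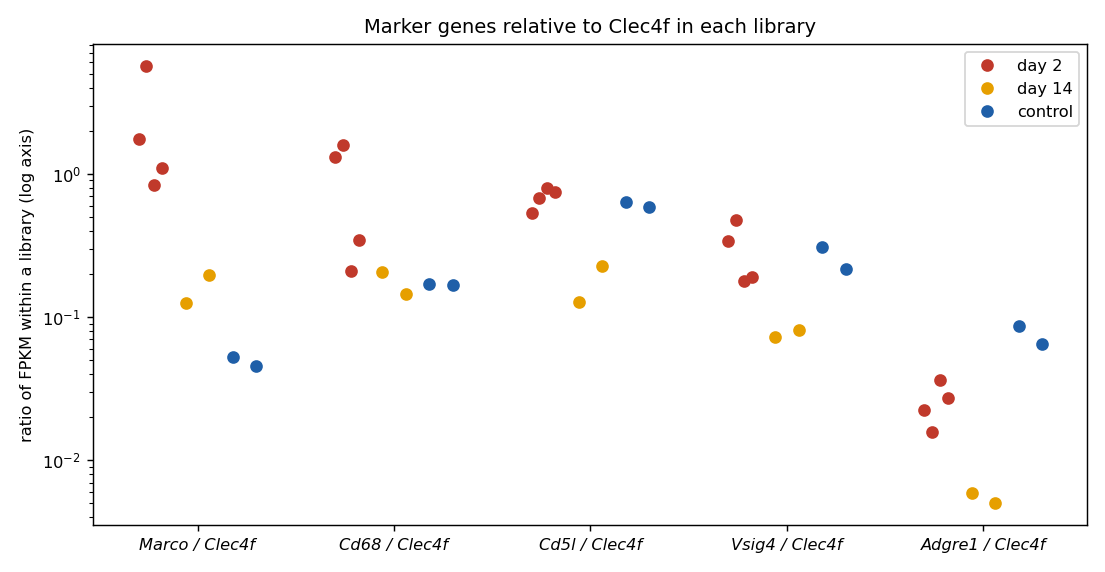
Ratio of the FPKM of 5 marker genes to that of Clec4f in the same library (vertical axis, log scale), with 1 point for each of the 4 day 2, 2 day 14 and 2 control libraries. Marco to Clec4f is 0.834 to 5.68 at day 2 and at most 0.0530 in control, and Adgre1 to Clec4f is 0.00503 and 0.00594 at day 14 and at least 0.0645 in control.

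The 4 day 2 livers differed among themselves along the same pairs as the whole transcriptome. Adgre1, Clec4f, Vsig4, Timd4, Cd5l and Folr2 were lower in both of replicates 1 and 2 than in replicates 3 and 4, and Cd68 was higher. Such a split was common: 26.7% of all tested genes were lower in both of replicates 1 and 2 and 27.4% were higher, so nothing is read from it about the members. The mean of replicates 3 and 4 over that of replicates 1 and 2 was 4.01 for Adgre1, 3.33 for Cd5l, 2.54 for Clec4f and 2.00 for Folr2. Csf1r, Cd163 and Marco did not separate the pairs. Replicates 1 and 2 had 0.0155 and 0.0483 FPKM of the proliferation gene Mki67, and replicates 3 and 4 had 10.5 and 14.9 FPKM. Cd14, a receptor for endotoxin on monocytes and macrophages, stood at 67.5 and 181 FPKM in replicates 1 and 2 and at 5.22 and 7.86 FPKM in replicates 3 and 4, against 1.25 and 1.31 FPKM in control. Cd14 and Mki67 were chosen after their values were seen, and no test was made between the pairs. The titles of replicates 1 and 2 carry the numbers 2 and 3 and those of replicates 3 and 4 the numbers 7 and 8, and replicate 3 alone is marked TVR, but no label says what these stand for.

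Genes known to act beside these markers were read from 10 lists of 121 genes. In bulk liver RNA their transcripts can also come from cells other than Kupffer cells, and the source was not tested. Counts of calls are to be read beside the share over all tested genes. Against control 9.72% were called higher and 11.5% lower at day 2, and 5.21% and 4.58% at day 14. At day 14 against day 2, 9.09% were called higher and 7.03% lower. The clearest group was complement C1q, whose A, B and C chains are made mainly by macrophages. C1qa stood at 38.2, 46.4, 30.0 and 46.4 FPKM in day 2 replicates 1 to 4, at 9.31 and 13.5 FPKM in day 14 replicates 1 and 2, and at 33.9 and 31.3 FPKM in control replicates 1 and 2. Day 14 lay below every other library, and day 2 around the controls. All 3 chains were called lower at day 14 than in control, by 1.46 ± 0.30 for C1qa, 1.46 ± 0.28 for C1qb and 1.21 ± 0.31 for C1qc on the log2 scale (limma adjusted p = 0.0324, 0.0296 and 0.0464). All 3 were also lower at day 14 than at day 2, C1qb by 1.78 ± 0.24 (limma adjusted p = 0.00589), and none was called at day 2 against control. After the trend was removed the same calls were made. Without either control library or without day 14 replicate 1 none of the 3 was called at day 14 against control, without day 2 replicate 1 only 1 was, and without day 14 replicate 1 none was called against day 2.

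Of 15 further genes listed for Kupffer cells, 12 were tested. At day 2 Vcam1, an adhesion molecule, rose by 0.84 ± 0.23 (limma adjusted p = 0.0348) and C6, a terminal complement component, fell by 1.92 ± 0.42 (limma adjusted p = 0.0183). Fcna, encoding ficolin A, a lectin of the complement system, fell at day 14 to 4.28 and 4.96 FPKM, against 18.1 and 15.8 FPKM in control (log2 change -1.67 ± 0.30; limma adjusted p = 0.0263). Fcna, Slc15a3 and Vcam1 were lower at day 14 than at day 2, and C6 was higher, by 2.16 ± 0.42.

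Genes listed as regulators of Kupffer cell identity moved in both directions at day 2 in bulk liver RNA, and which cells made these transcripts was not tested. Id1, a partner of helix-loop-helix factors and a target of BMP signals, rose to 96.4 to 220 FPKM at day 2, against 2.98 and 2.79 FPKM in control (log2 change 5.20 ± 0.37; limma adjusted p = 0.000899). Id3, which Kupffer cells need, rose by 2.10 ± 0.38, and Maf and Rbpj fell, by 1.06 ± 0.26 and 0.68 ± 0.20. After the trend was removed Maf and Rbpj were no longer called, at -0.71 and -0.26. At day 14 Id1 and Id3 were still above control, by 2.99 ± 0.43 and 2.24 ± 0.44. Between day 14 and day 2 Id1 fell by 2.21 ± 0.37 (limma adjusted p = 0.0102) and Maf rose by 0.98 ± 0.26 (limma adjusted p = 0.0425), both also called with the trend removed.

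**Figure D4:**
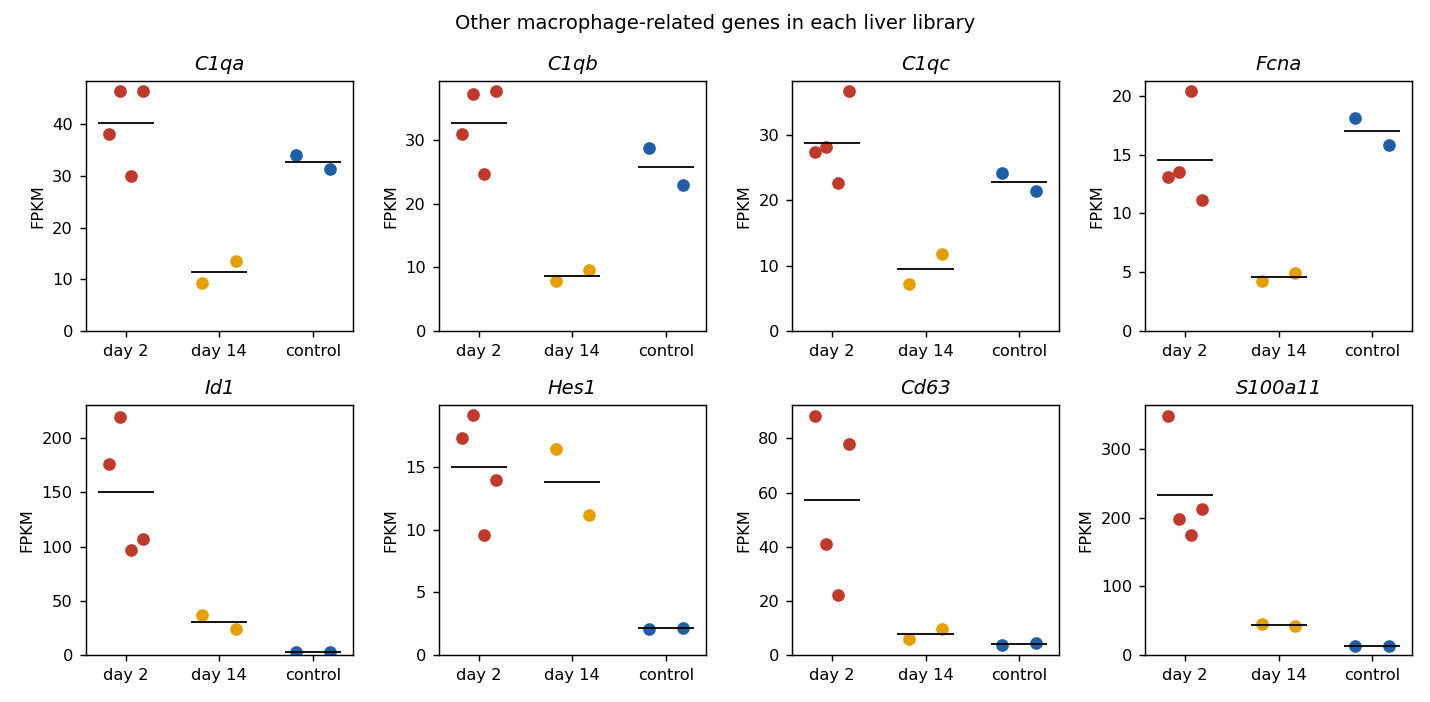
FPKM of 8 other genes linked to macrophages (vertical axis, linear from 0, a separate scale for each gene) in the 4 day 2, 2 day 14 and 2 control libraries, with group means as lines. The 3 C1q genes and Fcna are lowest at day 14, Id1, Cd63 and S100a11 are highest at day 2, and Hes1 is at 9.53 to 19.1 FPKM in the operated livers and at most 2.15 FPKM in control.

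Of 16 genes listed as niche signals for Kupffer cells 14 were tested. Against control 3 were called higher at day 2 and 3 at day 14, and none was called lower. The median log2 change of the list was 0.42 at day 2 but -0.30 at day 14, so the list did not rise as a set at day 14. Over all tested genes 9.72% were called higher at day 2 and 5.21% at day 14. Hes1, a Notch target, rose by 2.32 ± 0.30 at day 2 (limma adjusted p = 0.0034) and 2.23 ± 0.34 at day 14 (limma adjusted p = 0.0202). Il34, a ligand of the Csf1r receptor, rose by 0.83 ± 0.24 at day 2 and 1.25 ± 0.27 at day 14, and in neither case was it called after the trend was removed, at 0.39 and 0.92. Csf2ra rose at day 2 and the Notch ligand Dll1 at day 14, and both also lost their call with the trend removed. In control Il34 stood at 0.30 and 0.66 FPKM and Dll1 at 0.959 and 0.986 FPKM, so both passed the filter only through the operated livers, which favours a rise in this count. Csf1 itself was at 2.50 to 5.39 FPKM at day 2, at 5.97 and 5.33 FPKM at day 14, and at 2.47 and 3.14 FPKM in control, and was not called. Csf2rb and Tgfbr2 were lower at day 14 than at day 2.

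In a list for haem and iron recycling, a task of Kupffer cells, 2 of 11 genes rose at day 2. With 9.72% of all tested genes called higher there, 2 calls lie near that share. Hmox1, the haem oxygenase, rose by 1.72 ± 0.39 (limma adjusted p = 0.0199), and the ferritin chain Ftl1 by 1.06 ± 0.31, or 0.45 with the trend removed, when it was not called. Hmox1, Slc48a1 and Slc11a1 were lower at day 14 than at day 2, and none of the 11 was called at day 14 against control. Of 13 genes for scavenging and clearance of dying cells, Mfge8, a bridge to phosphatidylserine, rose by 1.76 ± 0.32 at day 2 (limma adjusted p = 0.0103). Colec12 and the mannose receptor gene Mrc1 fell, by 1.12 ± 0.21 and 0.90 ± 0.25, and neither was called with the trend removed. At day 14 against control Axl, a receptor in the uptake of dying cells, fell by 1.11 ± 0.23, and Scarf1 rose by 1.68 ± 0.36, a call lost with the trend removed. Mfge8, Axl and Cd36 were lower at day 14 than at day 2, Mfge8 by 2.32 ± 0.32, and Scarf1 was higher.

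Of 16 genes shared by myeloid cells Cyba and Fcer1g rose at day 2, by 1.44 ± 0.33 and 1.31 ± 0.39, and neither was called with the trend removed. These 2 calls lie near the 9.72% of all tested genes called higher at day 2. Lyz2, lysozyme, fell at day 14 by 1.49 ± 0.37 against control (limma adjusted p = 0.0447; 0.0509 with the trend removed). Fcgr3, Tyrobp and Cyba were lower at day 14 than at day 2, and Ptprc, which marks all leukocytes, was higher by 0.76 ± 0.21, or 0.51 and not called with the trend removed. Of 6 MHC class II genes tested of 7, H2-Eb1 fell at day 2 by 1.14 ± 0.35 (limma adjusted p = 0.0497), and none was called in the other comparisons. No lower call was made in this list with a pseudocount of 0.1 FPKM, with no filter, with only both compared groups in the model or with no variance trend, nor with 1 library left out, except without day 2 replicate 1.

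Markers of monocytes and recruited macrophages rose in 6 of 11 tested genes at day 2, with a median log2 change of 2.00, where 9.72% of all tested genes were called higher. S100a11, a calcium-binding protein that other cells also make, rose by 4.03 ± 0.29, the chemokine gene Ccl2 by 2.92 ± 0.82 and S100a6 by 2.68 ± 0.58. Ccl2 was not called with the trend removed (limma adjusted p = 0.0545). At day 14 S100a11 was above control by 1.69 ± 0.34, or 1.21 and not called with the trend removed. Plac8 rose by 2.00 ± 0.32, to 20.1 to 36.8 FPKM at day 2, against 5.90 and 5.94 FPKM in control. Ly6c2, which encodes the monocyte antigen Ly6C, stood at 2.22, 2.27, 1.43 and 0.899 FPKM in day 2 replicates 1 to 4 and at 0 and 0.601 FPKM at day 14, against 0.225 and 0.309 FPKM in control. It rose by 1.06 ± 0.30 at day 2 (limma adjusted p = 0.0415; 0.0538 with the trend removed). Ccr2, the receptor by which monocytes leave the marrow, stood at 0.29 to 1.26 FPKM at day 2 and 0.76 FPKM in both day 14 libraries, against 0.23 and 0.61 FPKM in control, and did not pass the filter. Of 9 tested genes of lipid-associated macrophages 4 rose at day 2 and the same number were lower at day 14 than at day 2. The shares over all tested genes were 9.72% and 7.03%. Cd63, a protein of late endosomes, rose by 3.34 ± 0.52, Lgals3 by 2.09 ± 0.44, Cd9 by 1.91 ± 0.29 and Trem2 by 1.09 ± 0.26. The median log2 change of the 9 at day 2 was 0.22. Fabp5, Ctsb and Lpl were lower at day 2 than in control, at -0.61, -0.44 and -0.16, without a call. In both lists genes that are low in control could pass the filter through their day 2 levels, so these counts favour a rise. Without control replicate 1 or control replicate 2 the counts at day 2 were 1 for monocytes and 0 for lipid-associated macrophages.

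Other lists also rested on single libraries. Outside the regulators and the monocyte list, no gene of any list was called at day 2 against control without control replicate 1 or without control replicate 2. In all 10 lists none was called at day 14 against control without either control library or without day 14 replicate 1, and outside the regulators none between day 14 and day 2 without day 14 replicate 1. Without day 2 replicate 1 the count at day 2 was 1 in the further Kupffer genes, the niche signals, haem recycling and the myeloid genes, and without day 2 replicate 3 it was 4 in haem recycling and 4 in the myeloid genes. Without either day 14 library it was 1 in these last lists, as in the myeloid genes without day 2 replicate 2 or 4. At day 14 against control, without day 14 replicate 2, 1 niche signal, 1 scavenging gene and no myeloid or monocyte gene was called. Between day 14 and day 2, without day 14 replicate 2, no niche signal or haem gene, 1 myeloid gene and 2 lipid-associated genes were called.

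Markers of other cells moved with the groups, and their part in the members' values was not tested. The summed FPKM of 10 neutrophil genes was 32.3 to 327 at day 2 and 16.1 and 75.8 at day 14, against 4.23 and 7.84 in control. Of these genes 5 were tested. S100a8, S100a9 and Retnlg were called higher at day 2, and Csf3r and Ngp were not called. Retnlg, at 0.169 and 0.341 FPKM in control, passed the filter only through the operated livers. Ly6g did not pass it, and its mean was 0.175 FPKM at day 2 and 0.368 FPKM in control. Sinusoidal endothelial genes summed to 71.7 to 121 FPKM at day 2 and 67.6 and 85.2 at day 14, against 137 and 149 in control. Of the 12 endothelial genes 3 were called lower in each comparison with control, among them Kdr by 1.91 ± 0.37 at day 2 and Lyve1 by 1.98 ± 0.35 at day 14. Over all tested genes 11.5% were called lower at day 2 and 4.58% at day 14. With the trend removed 2 of the 12 were called lower at day 2 and 1, Lyve1, at day 14. Only Stab1 went the other way, without a call. It stood at 37.7, 53.4, 9.83 and 21.3 FPKM in day 2 replicates 1 to 4. At day 14 it stood at 20.5 and 12.7 FPKM, against 9.33 and 9.42 FPKM in control. Among 5 genes of large peritoneal macrophages, which share Timd4 and Adgre1, Gata6 was at 3.54 to 7.11 FPKM at day 2 and 2.64 and 2.88 FPKM at day 14, against 1.99 and 1.72 FPKM in control. It was called higher at day 2, by 1.05 ± 0.25. Prg4, the most abundant of the 5 (log2 change 0.16 ± 0.46 at day 2; limma adjusted p = 0.826), and Selp were not called, and Cxcl13 and Alox15, with lower means at day 2 than in control, did not pass the filter. Lists for T, B, NK and dendritic cells summed to at most 6.02 FPKM in any library. In each of these lists both day 14 sums exceeded those of every other library. T cell genes summed to 3.95 and 4.50 FPKM at day 14, against 1.79 and 2.91 in control, and B cell genes to 4.24 and 6.02, against 1.47 and 2.27. NK cell genes summed to 2.31 and 2.85, against 0.619 and 0.769, and dendritic cell genes to 2.63 and 3.29, against 1.66 and 2.01. Only Lck, Jchain and Nkg7 of these lists passed the filter, with no call against control. Stellate cell genes summed to 148 to 198 FPKM at day 2 and 109 and 149 at day 14, against 128 and 144 in control, and cholangiocyte genes to 4.10 to 21.7 FPKM at day 2 and 5.03 and 5.77 at day 14, against 3.46 and 4.28 in control, with no call against control in either list. Of 9 hepatocyte genes Trf rose and Cps1 fell at day 2, the second call being lost with the trend removed, and the list summed to 64899 to 98409 FPKM at day 2 and 61063 and 74256 at day 14, against 54153 and 57958 in control. Erythroid genes summed to 371 to 1707 FPKM at day 2 and 1266 and 2768 at day 14, against 351 and 427 in control, with Hba-a1 and Hba-a2 called higher at day 14 and Alas2 lower at day 2. With the trend removed neither globin gene was called (limma adjusted p = 0.0814 and 0.0763). The 8 mitochondrial transcripts summed to 50263 to 202266 FPKM at day 2 and 151456 and 471771 at day 14, against 48830 and 50100 in control. None of the mitochondrial genes was called against control. Between day 14 and day 2, where Marco and Vsig4 fell, Lyve1 fell by 1.84 ± 0.31, the stellate genes Hgf and Dcn by 1.58 ± 0.35 and 1.07 ± 0.29, and the fibrinogen gene Fgb by 1.58 ± 0.44. Alas2 rose by 3.10 ± 0.29, mt-Nd2 by 2.23 ± 0.63 and Nkg7 by 0.94 ± 0.25, and mt-Nd2 and Nkg7 were not called with the trend removed. Nkg7 was at most 0.547 FPKM at day 2 and in control. It passed the filter only through day 14, at 1.21 and 1.31 FPKM, which favours a rise. With median-ratio scaling between libraries the members' counts of calls were unchanged in the 3 comparisons.

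For the genes of most similar pattern, each gene's log2(FPKM + 1) was centred on its mean over the 8 libraries, and the root mean square difference to the mean profile of the 10 members was taken. The members and genes with model names, of the Gm, Rik, AC, BC or similar type, were left out of the search. The 6 nearest of the rest were Kctd9, at 0.08 log2 units, then Tmem263, Uaca, Rfc1, Mapre1 and Lims1, at 0.14 to 0.16. Csf1r was nearest to Fign (0.09), Timd4 to Zmym1 (0.10), and Clec4f to Cbx1 (0.13). Adgre1 was nearest to Lgals9 (0.18) and Vsig4 to Nubpl (0.19). For Marco no gene in the search came closer than Apoc2, at 0.46. Among the members themselves Timd4 and Folr2 were most alike, at 0.26, and Marco and Adgre1 least, at 2.22.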

How the data were processed

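RNA of mouse liver was sequenced from libraries made with the Illumina TruSeq RNA kit, per the labels' protocols. The deposited table gives FPKM for each gene and library, per the file headers. The submitters' processing notes name HISAT2, Cufflinks 2.2.1, HTSeq, DESeq2, GRCm38 and mm9 without roles, and the design text also names BWA and TopHat. It is not stated which of them made the table, nor how libraries were scaled.

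Of 47719 genes, 25829 were at 0 throughout. By identifier, 27 symbols turned into dates were restored. The fit used log2(FPKM + 1), with 1 FPKM or more required in 2 or more libraries, 3 group means and limma 3.58.1 (R 4.3.3), variance trend included, leaving 5 residual degrees of freedom. A call is an adjusted p below 0.05 (Benjamini-Hochberg, over 12340 genes). Coordinates, lengths of the longest transcript and GC content are from GENCODE M21, and promoters from RefSeq. Trends in length and GC were removed per library by splines with 4 degrees of freedom, for 12307 genes. Alternatives were the pseudocount, filter, scaling, variance model, libraries in the fit, and leaving out each library.

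The members and lists were chosen with earlier results of these data known. Genes named are the members, up to 3 called genes per comparison from each of 10 lists, up to 2 from each of 12 marker lists, or the most abundant gene of a list, and those of most similar pattern. Further called genes, and Ccr2, Csf1, Cd14, Mki67, Selp, Cxcl13, Alox15, Stab1, Csf3r, Ngp, Ly6g, Fabp5, Ctsb and Lpl, were named after their values were seen. A result for 1 gene of these lists is not reported here.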

Additional observations from a re-analysis of the deposited data

How the results depend on the processing

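Counts of calls depended most on which libraries were fitted. When the third group was left out of the model, 6 members and 3239 genes in all were called at day 14 against control. Of these members Marco was called higher, and Cd5l and Cd163 were among those called lower. At day 14 against day 2, 996 genes were called with the third group left out. With the length and GC trend removed, 1739 genes were called at day 2 and 508 at day 14 against control. Without a filter 691 were called at day 14 against control, and with a pseudocount of 0.1 FPKM 4 members at day 14 against day 2. Leaving out each library in turn gave 1 to 4 members and 92 to 2971 genes at day 2 against control, 0 to 6 members and 0 to 2097 genes at day 14 against control, and 0 to 4 members and 17 to 2472 genes at day 14 against day 2. For all genes the lowest counts came without a control library at day 2, and without day 14 replicate 1 in the other comparisons. The log2 change of Cd163 at day 2 was 0.022 under quantile scaling and 0.22 with the trend removed, and -0.14 to 0.12 with a library left out. With a library left out, Timd4 at day 2 was -0.44 to 0.034, Cd68 at day 14 against control -0.57 to 0.0081, and Clec4f at day 14 against day 2 -0.027 to 0.52. None of these 4 had passed. The cause was not tested. Under the filter at 5 FPKM Adgre1, Timd4 and Cd163 gave no value. No paired analysis was possible because the replicate numbers of the operated groups were given in accession order and tie no library to another.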
